A study of Mus musculus with 12 samples.

Results

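The lymphocyte infiltration genes examined here were 10 transcripts that T lymphocytes, natural killer cells or white blood cells in general use. They were Cd3e, Cd3d, Cd3g, Cd4, Cd8a, Cd8b1, Ptprc, Nkg7, Gzmb and Ms4a4b, chosen by symbol from the deposited count table. All 10 were among its 22236 genes, of which 19066 had at least 1 count. RNA had been sequenced from the hippocampus of males of 3 to 5 months, either C57BL/6J (B6) or DBA/2J (D2). Each mouse had received a bilateral injection of AAV9, an adeno-associated virus, encoding either a short hairpin RNA against Hp1bp3 (the knockdown group, KD) or a scrambled hairpin (Ctrl), at least 6 weeks before the tissue was taken. The 4 groups (B6 Ctrl, B6 KD, D2 Ctrl and D2 KD) held 3 mice each, 1 library per mouse, and every mouse, controls included, carried a virus and a hairpin. There were no uninjected mice in the table, and the promoter that drives the hairpin is not given in the sources used here.

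A T cell recognises antigen through its receptor, which signals only when joined to the CD3 chains encoded by Cd3d, Cd3e and Cd3g. Cd4 marks helper T cells, while Cd8a and Cd8b1 encode the chains of the coreceptor of cytotoxic T cells. Killer lymphocytes carry granzyme B (Gzmb), a protease that starts death of the target cell, and the granule protein Nkg7. Ptprc encodes CD45, a phosphatase on all nucleated blood cells, and it is also expressed by microglia, the resident macrophages of the brain. Lymphocytes are scarce in healthy brain tissue, and in bulk RNA fewer cells of a type and less RNA per cell cannot be told apart.

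These were among the faintest transcripts of the libraries, whose totals ran from 18.2 M to 39.4 M counts with a median of 32.4 M. Over all 12 libraries together Cd8b1 had 34.5 counts, Gzmb 57, Cd3g 58, Cd3d 63.8, Nkg7 70, Cd3e 77, Cd8a 122, Ms4a4b 186 and Cd4 225. Ptprc stood apart with 3835 counts. The 3 libraries of B6 KD held 87.0% of all Cd3e counts, 83.3% of those of Ms4a4b, 75.4% of those of Gzmb and 70.7% of those of Cd3g. The lowest such share was that of Cd8a, 44.9%, and Ptprc followed with 47.6%.

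The target gene was measured first as a check of the labels. Hp1bp3 had 294 to 310 CPM (counts as a rate per 1e6, scaled by the trimmed mean of M values, TMM) in B6 Ctrl, and 185, 182 and 259 CPM in B6 KD replicates 1 to 3. In D2 Ctrl it ranged from 215 to 234 CPM, and D2 KD replicates 1 and 2 had 177 and 163 CPM. The library labelled D2 KD 3 had 230 CPM, inside the D2 Ctrl range and so against its label, and the members' tests that include D2 KD are given with and without it. Libraries also differed within groups in choroid plexus markers, a list of 10 genes of the tissue that lines the ventricles, whose summed level ran from 75.7 to 5312 CPM.

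The sequences just before the start sites of Cd3e, Gzmb and Ms4a4b, the members with the greatest KD to Ctrl ratios in B6, are shown so that their letters can be set beside the shared pattern. They are the 250 bases before each RefSeq start on build GRCm38.p6, written 5′ to 3′ on the gene's own strand, with capitals for matches on either strand to AGGAAG (the core bound by ETS factors), TGTGGT (RUNX factors) or TATAAA (the TATA box).
Cd3e, chr9:45009612-45009861, minus strand: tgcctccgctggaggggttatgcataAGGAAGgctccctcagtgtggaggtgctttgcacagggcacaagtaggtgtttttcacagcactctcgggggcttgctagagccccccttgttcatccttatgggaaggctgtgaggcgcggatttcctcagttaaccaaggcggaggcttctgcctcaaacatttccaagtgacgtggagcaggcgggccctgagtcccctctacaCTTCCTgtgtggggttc
Gzmb, chr14:56262335-56262584, minus strand: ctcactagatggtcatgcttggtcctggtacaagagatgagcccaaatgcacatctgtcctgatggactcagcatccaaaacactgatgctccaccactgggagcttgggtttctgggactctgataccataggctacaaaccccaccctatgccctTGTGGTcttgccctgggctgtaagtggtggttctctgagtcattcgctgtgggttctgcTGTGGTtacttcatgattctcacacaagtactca
Ms4a4b, chr19:11443308-11443557, plus strand: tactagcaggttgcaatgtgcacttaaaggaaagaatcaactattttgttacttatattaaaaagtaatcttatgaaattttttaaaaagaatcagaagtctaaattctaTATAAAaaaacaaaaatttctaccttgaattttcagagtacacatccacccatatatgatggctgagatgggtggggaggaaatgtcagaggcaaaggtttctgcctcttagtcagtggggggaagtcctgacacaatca
The Cd3e window held 2 matches to AGGAAG, the Gzmb window 2 to TGTGGT and the Ms4a4b window 1 to TATAAA. Among 32851 windows of this length, 29.5% held AGGAAG, 14.05% TGTGGT and 12.4% TATAAA. Windows were on hand for 8 of the 10 members, not for Cd4 and Cd8b1. Among those not shown, Cd3d, Ptprc and Nkg7 held AGGAAG, Nkg7 also TGTGGT and Ptprc also TATAAA, while Cd3g and Cd8a held no match.

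Whether knockdown of Hp1bp3 changed these genes was asked first in B6. The CD3 chains were near absence in B6 Ctrl and had far more counts in 2 of the 3 B6 KD mice. Cd3e, on chromosome 9 (44998740 to 45009627, GRCm38), had 0, 2 and 0 counts in B6 Ctrl 1 to 3 and 27, 31 and 9 counts in B6 KD 1 to 3. Every KD library was above every Ctrl library, and KD 3 was the lowest of the 3. The mean level was 0.784 ± 0.566 CPM (SD, n = 3) in B6 KD and 0.0255 ± 0.0441 CPM in B6 Ctrl. GENCODE M21 places an antisense gene, Gm48719, over Cd3e, and whether the counting used strand is not given in the sources used here.

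Cd3d (44981786 to 44987339) and Cd3g (44969572 to 44980431) lie head to head on the same chromosome, 1355 bp apart, and the 3 CD3 genes together span 40.055 kb. Cd3d had 6, 2 and 1 counts in B6 Ctrl and 11, 24 and 2 in B6 KD. Cd3g had 6, 2 and 1 counts in B6 Ctrl and 23, 16 and 2 in B6 KD. For both genes KD 1 and KD 2 were above every control, whereas KD 3 fell inside the control range.

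Summed over the 3 chains, the CD3 count was 12, 6 and 2 in B6 Ctrl and 61, 71 and 13 in B6 KD. As levels, the B6 Ctrl libraries had 0.324, 0.229 and 0.0578 CPM and the B6 KD libraries 1.73, 3.11 and 0.328 CPM. KD 3 thus barely passed the highest control, and their exact 95% Poisson intervals overlapped (0.174 to 0.560 CPM in KD 3 and 0.167 to 0.565 CPM in Ctrl 1). KD 1 (1.32 to 2.22 CPM) and KD 2 (2.43 to 3.93 CPM) had intervals that lay above those of all other libraries. These intervals cover counting error alone.

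**Figure D1:**
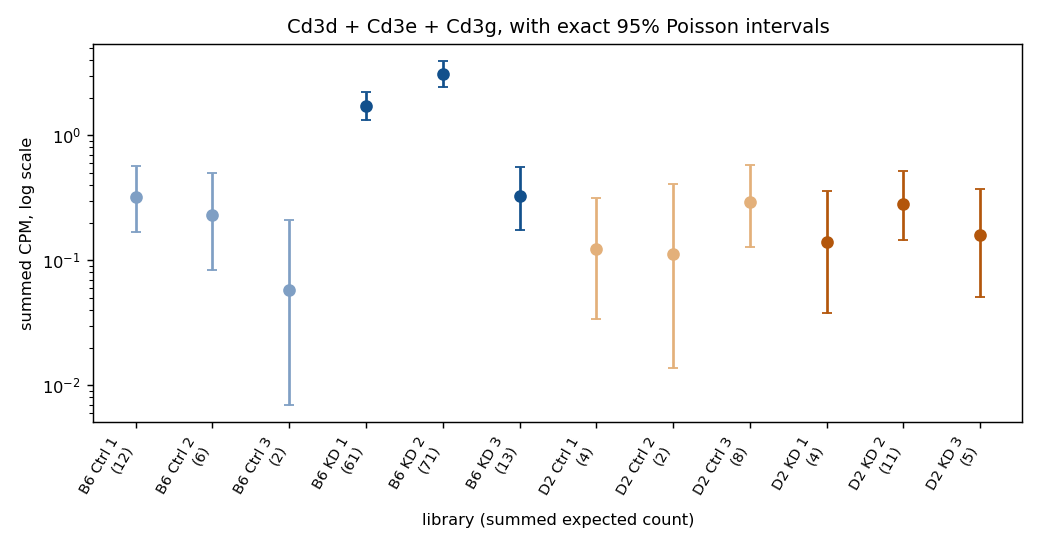
Summed level of Cd3d, Cd3e and Cd3g (CPM, log axis) in each of the 12 libraries, with the summed count in brackets; bars are exact 95% Poisson intervals. B6 KD 1 and 2 stand at 1.73 and 3.11 CPM, and the other 10 libraries lie between 0.0578 and 0.328 CPM.

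The coreceptor genes lie on chromosome 6 of GRCm38, Cd8b1 (71322788 to 71337494) and Cd8a (71373427 to 71379173) 35.9 kb apart, and Cd4 at 124864692 to 124888221. Cd4 had 34, 11 and 7 counts in B6 Ctrl and 29, 64 and 32 in B6 KD, and the groups overlapped. Cd8a had 6.06, 3 and 11.5 counts in B6 Ctrl and 25, 24 and 6 in B6 KD, also with overlap. Cd8b1 had 2, 2.02 and 2.11 counts in B6 Ctrl and 8.02, 7.41 and 3.65 in B6 KD. The Cd8b1 groups did not overlap on the CPM scale, but the gap between the lowest KD library (0.0920 CPM) and the highest Ctrl library (0.0772 CPM) was less than the level of 1 count.

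Among the effector genes, Gzmb (chromosome 14, 56258838 to 56262260) had 0, 1 and 0 counts in B6 Ctrl and 19, 14 and 10 in B6 KD, with no overlap. Nkg7 (chromosome 7, 43437073 to 43438249) had 8, 3 and 1 counts in B6 Ctrl and 16, 24 and 7 in B6 KD, where KD 3 (0.176 CPM) fell below Ctrl 1 (0.216 CPM). Ms4a4b, which encodes a membrane protein of T cells (chromosome 19, 11443553 to 11467055), had 6, 3 and 2 counts in B6 Ctrl and 69, 75.0 and 11 in B6 KD, again without overlap. Its B6 KD libraries themselves ranged from 0.277 to 3.29 CPM. Reads shared with other transcripts gave fractional counts for Cd8b1 in 9 libraries, Cd8a in 5, Cd3d in 2 and Ms4a4b in 1, so the values of these genes carry that uncertainty.

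Ptprc, on chromosome 1 (138062861 to 138175708), was by far the most abundant member. It had 175, 199 and 169 counts in B6 Ctrl and 721, 714 and 392 in B6 KD, or 5.74 ± 1.62 CPM (SD, n = 3) against 20.5 ± 10.7 CPM. The groups did not overlap. Per 100 Ptprc counts, the 3 CD3 chains together had 6.86, 3.02 and 1.18 counts in B6 Ctrl and 8.46, 9.94 and 3.32 counts in B6 KD, so the groups overlapped on this ratio.

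**Figure D2:**
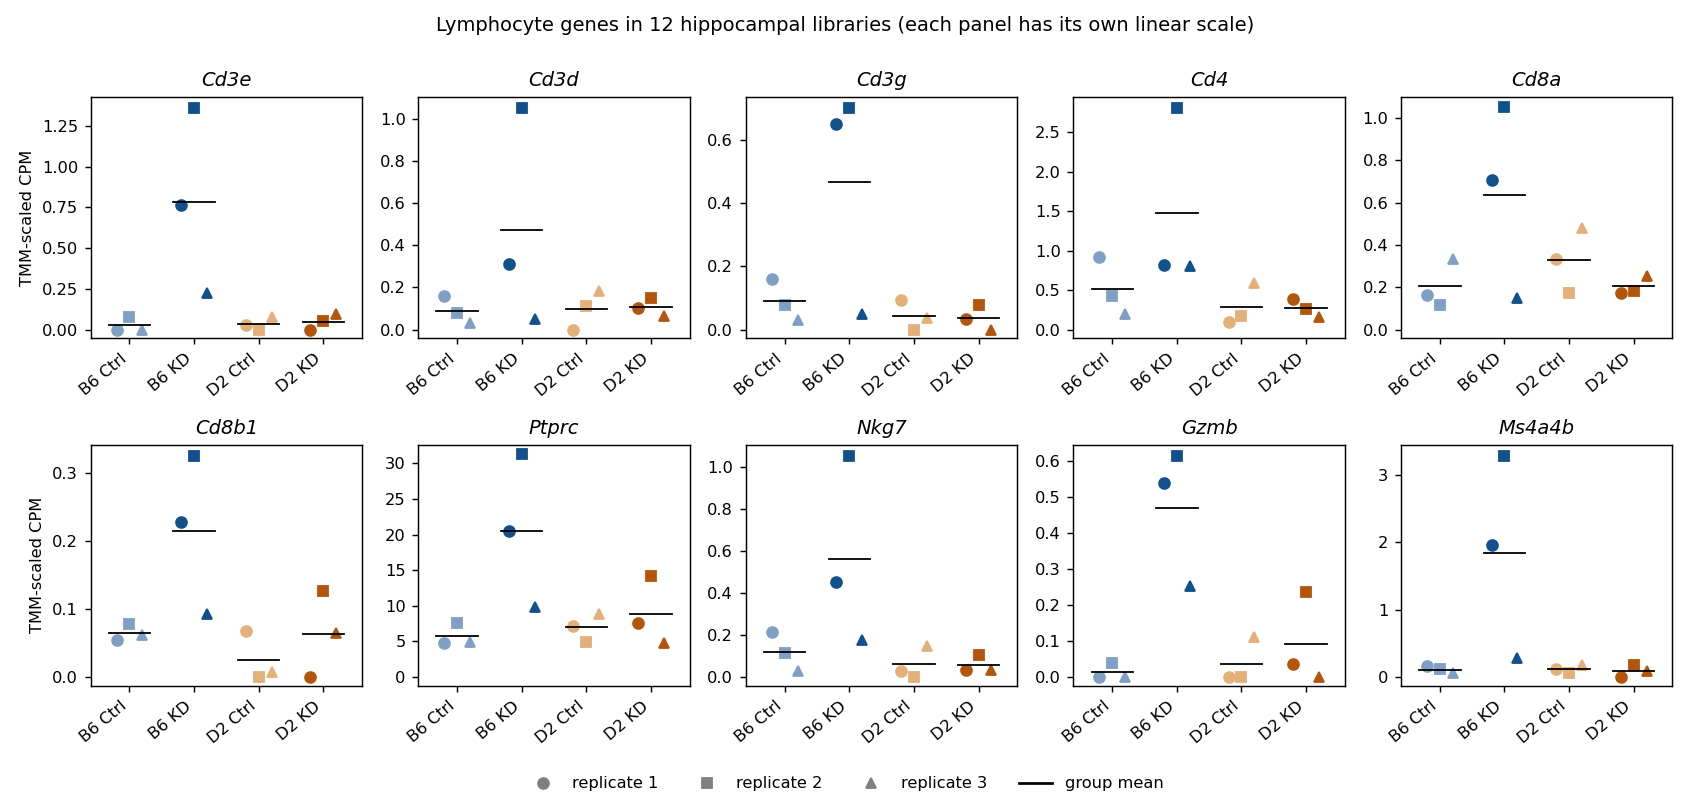
TMM-scaled CPM of the 10 genes (linear axis, a separate scale in each panel) in 3 libraries of each of 4 groups; marker shapes give the replicate name and bars the group mean. B6 KD 2 was the highest library for all 10 genes, as with Ptprc at 31.3 CPM.

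In the B6 comparison, 5 of the 10 members (Cd3e, Cd8b1, Ptprc, Gzmb and Ms4a4b) had every KD library above every Ctrl library, a pattern held by 12.6% of the 19066 genes with any count. For the other 5 the groups overlapped, and no member had every KD library below Ctrl. Set as pooled counts scaled by library size, the KD to Ctrl ratio was 33.5 for Cd3e (95% interval 8.93 to 283, from 67 and 2 counts) and 43.0 for Gzmb (7.32 to 1739, from 43 and 1 counts). It was 14.1 for Ms4a4b (7.67 to 28.8), 4.56 for Cd3g (2.18 to 10.7) and 4.11 for Cd3d (1.95 to 9.69). The ratio was 3.92 for Nkg7 (2.05 to 8.12), 3.37 for Ptprc (3.06 to 3.71), 3.17 for Cd8b1 (1.22 to 9.70), 2.62 for Cd8a (1.56 to 4.56) and 2.41 for Cd4 (1.73 to 3.39). These exact conditional intervals cover counting error and leave out the spread between mice.

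The test across all genes (edgeR quasi-likelihood, Benjamini-Hochberg adjusted) takes that spread into account. After the usual filter on low counts 15853 genes remained, and 3 of the 10 members were among them (Cd4, Cd8a and Ptprc). None of the 3 passed an adjusted p of 0.05 in B6, where 2.64% of all tested genes did. The log2 fold change was 1.84 ± 0.47 (SE) for Ptprc (edgeR adjusted p = 0.0592, higher in 3 of 3 KD libraries), 1.53 ± 0.66 for Cd8a (0.219) and 1.48 ± 0.72 for Cd4 (0.275). DESeq2, which called 10.6% of the same genes, called Ptprc (adjusted p = 0.00199).

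The 7 members removed by the filter could be tested only in a fit without it, over the 19066 genes with any count. There all 10 estimates were above 0, with a median log2 fold change of 2.17 against 0.0019 for all genes, and 7 of the 10 had an unadjusted p under 0.05, as had 18.04% of all genes. Cd3e alone passed the adjusted threshold (log2 fold change 4.93 ± 1.09 SE, edgeR adjusted p = 0.0488), where 1.67% of all genes did. Ms4a4b (3.96 ± 0.91, edgeR adjusted p = 0.0525) and Gzmb (5.00 ± 1.31, edgeR adjusted p = 0.0715) stood just beyond it. Fold changes of Cd3e and Gzmb depend on the small count that the fit adds to near-empty controls. The other 7 members had edgeR adjusted p-values between 0.0683 (Ptprc) and 0.326 (Cd8b1).

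The Cd3e call was sensitive to single libraries. It was lost when any of 9 of the 12 libraries was left out, namely the 3 B6 Ctrl libraries, B6 KD 1, B6 KD 2, D2 Ctrl 1, D2 Ctrl 2, D2 KD 1 and D2 KD 2, with edgeR adjusted p-values from 0.0529 to 0.228. The number of members called in the unfiltered fit ran from 0 to 3 over these omissions. B6 KD 3 was the lowest B6 KD library for all 10 members and had the highest Hp1bp3 level of that group (259 CPM). Without it, Cd3e, Ptprc and Ms4a4b were called. Without D2 KD 3, whose Hp1bp3 goes against its label, Cd3e, Ptprc and Gzmb were called. The calls over all genes moved as well, from 319 to 580 without B6 KD 3 and to 582 without D2 KD 3.

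In D2 the same genes gave no separation between the treatments. The summed CD3 count was 4, 2 and 7.98 in D2 Ctrl and 4, 10.8 and 5 in D2 KD. Cd3e had 1, 0 and 2 counts in D2 Ctrl and 0, 2 and 3 in D2 KD. Gzmb had 0, 0 and 3 counts in D2 Ctrl and 1, 9 and 0 in D2 KD, and Ms4a4b had 4, 1 and 5 against 0, 7 and 3. Most of these counts were 3 or fewer.

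Cd3d had 0, 2 and 4.98 counts in D2 Ctrl and 3, 5.78 and 2 in D2 KD, and Cd3g had 3, 0 and 1 against 1, 3 and 0. Cd4 had 3, 3 and 16 counts in D2 Ctrl and 11, 10 and 5 in D2 KD. Cd8a had 10.8, 3.01 and 12.99 counts in D2 Ctrl and 5, 7 and 8 in D2 KD. All of these groups overlapped.

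Cd8b1 had 2.2, 0 and 0.2 counts in D2 Ctrl and 0, 4.83 and 2.03 in D2 KD, and Nkg7 had 1, 0 and 4 against 1, 4 and 1. Ptprc had 231, 87 and 237 counts in D2 Ctrl and 216, 542 and 152 in D2 KD, or 6.95 ± 1.93 CPM against 8.87 ± 4.86 CPM (SD, n = 3). D2 KD 2 held the highest Ptprc level of the D2 libraries (14.3 CPM), and the library labelled D2 KD 3 the lowest (4.81 CPM).

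For all 10 members the D2 groups overlapped, and 3.08% of genes with any count had every D2 KD library above every D2 Ctrl library. No member passed the edgeR test in D2, filtered or not, where 0% of all genes did, and none had an unadjusted p under 0.05. The log2 fold changes in the unfiltered fit ran from -0.73 ± 0.69 (SE) for Cd8a to 1.32 ± 1.15 for Cd8b1, with 5 above 0 and 5 below. Those of the CD3 genes were 0.36 ± 1.36 (Cd3e), 0.22 ± 1.205 (Cd3d) and -0.30 ± 1.39 (Cd3g), and that of Ptprc was 0.35 ± 0.46. For the members other than Ptprc, errors of this size leave changes of several fold in either direction undetectable at this depth.

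Without the library labelled D2 KD 3, which left 2 KD libraries, the D2 fold changes ran from -0.91 (Cd8a) to 1.78 (Gzmb) on the log2 scale, with 7 above 0 and 3 below. The lowest edgeR adjusted p was 0.796. Of the 10 members 0 had both remaining KD libraries above every Ctrl library, a pattern of 11.9% of genes with any count. The CD3 estimates became -0.35 (Cd3e), 0.49 (Cd3d) and 0.22 (Cd3g), and that of Ptprc 0.64.

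**Figure D3:**
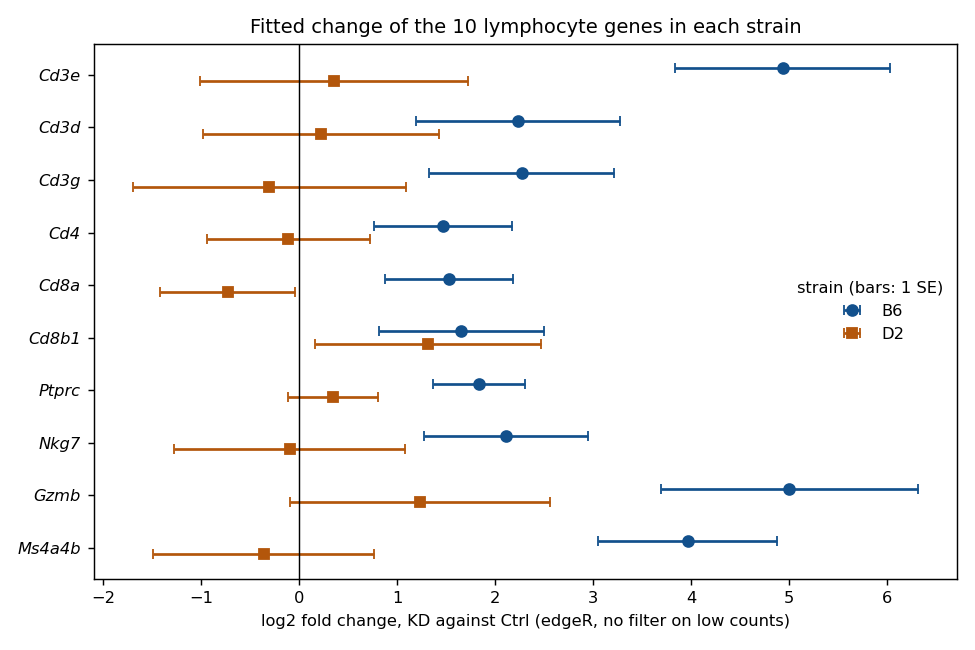
Log2 fold change of KD against Ctrl (unfiltered edgeR fit, bars 1 SE) for each of the 10 genes in B6 and D2. B6 estimates lie between 1.47 and 5.00 and D2 estimates between -0.73 and 1.32.

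A call in one strain and none in the other does not show that the strains differ, so the strain by treatment interaction was tested. All 10 estimates were below 0, that is a lower KD effect in D2, with values from -4.57 ± 2.01 (SE) for Cd3e to -0.34 ± 2.01 for Cd8b1. None passed (lowest edgeR adjusted p = 0.901, 0% of all genes called), and 4 had an unadjusted p under 0.05, against 5.43% of all genes. Ms4a4b had the lowest of these (log2 difference -4.32 ± 1.48). In the filtered fit Ptprc had -1.49 ± 0.65, Cd8a -2.26 ± 0.96 and Cd4 -1.58 ± 1.12, with a lowest edgeR adjusted p of 0.824. Hp1bp3 itself had a log2 fold change of -0.54 ± 0.15 (SE) in B6 and -0.25 ± 0.15 in D2, with an interaction of 0.30 ± 0.21. The knockdown was thus estimated as smaller in D2, but this estimate includes D2 KD 3 (230 CPM, inside the D2 Ctrl range). D2 KD 1 and 2 had 177 and 163 CPM, and B6 KD 1 to 3 had 185, 182 and 259 CPM. The Hp1bp3 interaction was not called (edgeR adjusted p = 0.943), and its estimate without D2 KD 3 is not given here. The part of the knockdown in the strain contrast of the members was not tested. Averaged over the strains, all 10 estimates were above 0 (0.40 to 3.12) and none passed with edgeR (lowest adjusted p = 0.129, 0% of all genes called), although 4 members and 16.8% of all genes had an unadjusted p under 0.05. This average shares its libraries with the 2 comparisons within strains. Without D2 KD 3 no member passed in the interaction (lowest edgeR adjusted p = 1.00, 0% of all genes called) or in the average (lowest edgeR adjusted p = 0.0558), although 3.71% of all genes then passed in the average.

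Between the strains, the control mice gave 6 estimates above 0 and 4 below for D2 against B6 (-1.16 to 1.57 on the log2 scale). None passed, while 11.3% of genes did in the unfiltered fit and 14% in the filtered fit. Averaged over treatments, all 10 members were estimated lower in D2 (-2.09 to -0.31), an average that holds the B6 KD libraries. None passed, against 17.5% of all genes in the unfiltered and 21.3% in the filtered fit. Without D2 KD 3 the lowest edgeR adjusted p of a member was 0.131, and 16.03% of all genes passed. Cd4 was nearest with all libraries (log2 fold change -1.63 ± 0.56 SE, edgeR adjusted p = 0.0614 in the filtered fit). It was called without B6 Ctrl 3 (edgeR adjusted p = 0.0438), without B6 KD 3 (0.0482) and without D2 Ctrl 3 (0.0209). The share of all genes that passed in those fits is not given here, and with all libraries it was 21.3%. In Ctrl mice alone, Cd4 had 0.513 ± 0.366 CPM in B6 and 0.285 ± 0.269 CPM in D2 (SD, n = 3), and the groups overlapped.

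Levels were compared between genes per kilobase of exon (GENCODE M21, all exons of a gene merged). In B6 Ctrl, Ptprc had 0.313 CPM per kb, Nkg7 0.131, Cd4 0.127, Cd8a 0.0560, Cd3d 0.0491, Cd8b1 0.0432, Cd3g 0.0272, Ms4a4b 0.0127, Gzmb 0.00887 and Cd3e 0.00625. In B6 KD the order was Ptprc (1.12 CPM per kb), Nkg7 (0.614), Cd4 (0.367), Gzmb (0.326), Cd3d (0.260), Ms4a4b (0.210), Cd3e (0.192), Cd8a (0.175), Cd8b1 (0.145) and Cd3g (0.143). Gzmb, Ms4a4b and Cd3e moved up the order between the groups, and neighbours from Gzmb to Cd3g in B6 KD lay closer together than the spread of their libraries. Merged exons overstate the length of a gene whose transcripts are mostly short, so the order depends on the annotation.

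The genes whose levels ran closest to the summed CD3 level over the 12 libraries were sought among 14989 tested genes with a mean of at least 0.5 CPM, by Pearson's r on log2(CPM + 0.5). They were Il2rb (r = 0.99), a chain of the interleukin-2 and interleukin-15 receptors, then Wdfy4, Pydc3, Il15, Gbp9, Ccl5, Tlr12, Dock2, Lrrc25 and Tnfsf8, with r down to 0.94. The search used levels alone, so a place among them does not make a gene one of lymphocytes. Il2rb had 1.42, 2.76 and 0.580 CPM in B6 KD 1 to 3 and group means of 0.379 (B6 Ctrl), 0.398 (D2 Ctrl) and 0.374 CPM (D2 KD). Ccl5, a chemokine that draws T cells, had 8.002, 15.6 and 0.731 CPM in B6 KD and 0.354, 0.450 and 1.10 CPM on average in those 3 groups.

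After each group's mean was subtracted, r stayed between 0.87 (Tnfsf8) and 0.98 (Il2rb). Without B6 KD 1 and B6 KD 2, the 2 libraries farthest from the median, r over the other 10 was 0.93 for Il2rb, 0.89 for Tlr12 and 0.80 for Lrrc25, and it fell to between 0.39 (Tnfsf8) and 0.73 (Wdfy4) for the rest. The likeness of those genes rested mainly on these libraries. Il2rb, Pydc3, Il15 and Tnfsf8, 4 of the 10, had a mean under 0.5 CPM in the 9 libraries outside B6 KD, so they entered the search through the group in which CD3 was high, and 302 of the genes searched had an r of at least 0.8. With a pseudocount of 0.1, 7 of the 10 genes stayed in the list, and with 2, 6 did.

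Other gene groups moved in the same libraries, and their part in the result was not tested. The summed level of 15 interferon response genes was 101 to 126 CPM in B6 Ctrl and 1198, 1551 and 545 CPM in B6 KD 1 to 3, with KD 3 again lowest. In D2 it was 112 to 284 CPM in Ctrl and 414, 593 and 135 CPM in KD. The 12 microglia markers summed to 463 to 518 CPM in B6 Ctrl and to 921, 864 and 607 CPM in B6 KD, and to 440 to 652 CPM in the D2 libraries. Ptprc is expressed by microglia as well as lymphocytes, and the CPM of the 2 cannot be separated here.

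Choroid plexus markers did not share this order. They summed to 161 CPM in B6 KD 1 and 4325 CPM in B6 KD 2, both high for the CD3 genes, and to 5242 CPM in B6 KD 3. Red blood cell markers (6 of 8 genes in the table) summed to 103 to 163 CPM in B6 Ctrl and 87.0 to 145 CPM in B6 KD, and these ranges overlapped.

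**Figure D4:**
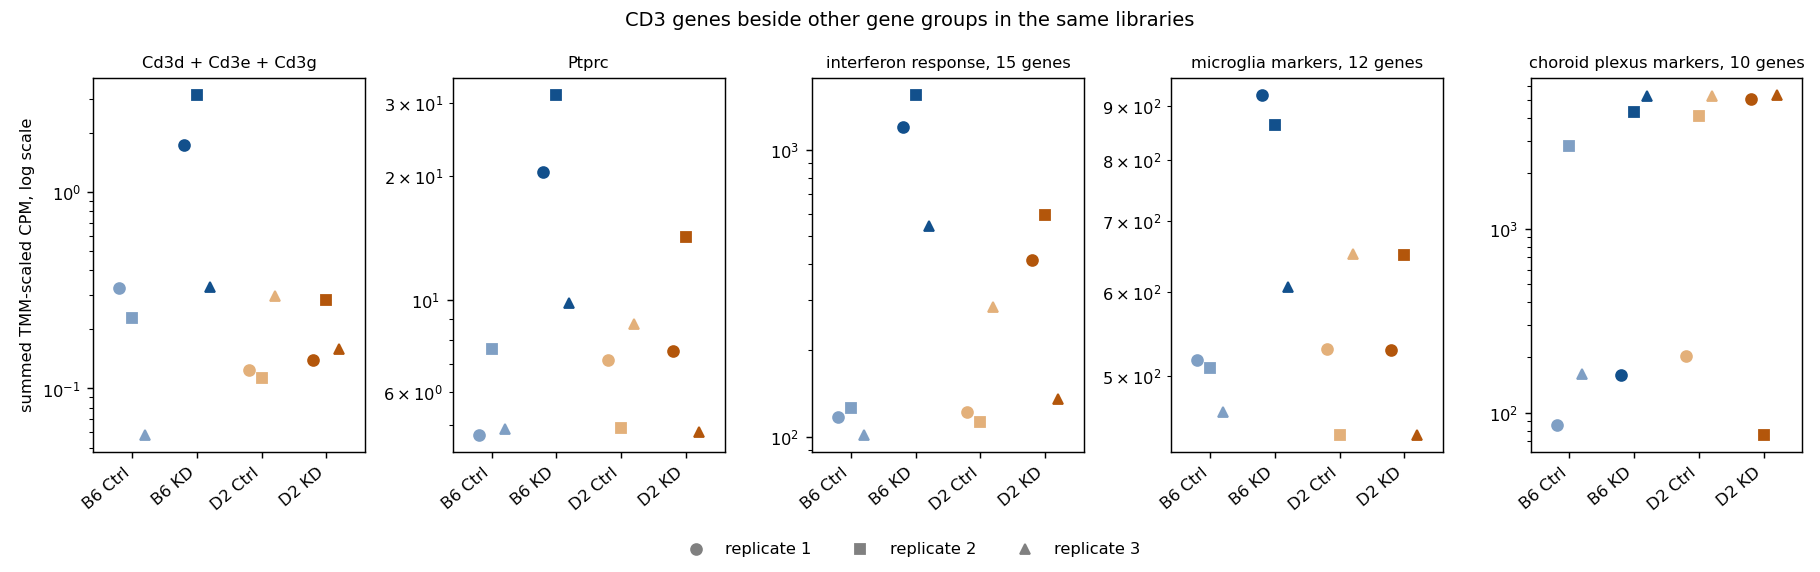
Summed CPM (log axes, a separate scale in each panel) of the CD3 genes, Ptprc, 15 interferon response genes, 12 microglia markers and 10 choroid plexus markers in each library, by group; marker shapes give the replicate name. B6 KD 1 and 2 are highest in the first 4 panels, whereas their choroid plexus sums are 161 and 4325 CPM.

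Other genes that T cells use, some of which other cells express as well, were taken as lists and tested in the filtered fit for B6. Of 16 genes of the T cell receptor complex and its signalling, 12 were in the table, 10 were tested and 0 passed, although all 10 estimates were above 0 (median log2 fold change 0.37, all tested genes 0.0025). Lcp2, an adaptor below the receptor, had 1.30 ± 0.34 (SE, edgeR adjusted p = 0.0640). The kinase Lck had 0.41 ± 0.26 (edgeR adjusted p = 0.406). The constant chains Trac, Trbc1, Trbc2 and Trdc were in the list but were not found in the table by symbol or identifier, so they could not be analysed.

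Of 20 surface and costimulation genes, 10 were tested and 1 rose, where 2.64% of all tested genes were called in either direction. It was Il2rg, the common gamma chain of several interleukin receptors (2.42 ± 0.54, edgeR adjusted p = 0.0456). It had 0.944, 1.38 and 0.636 CPM in B6 Ctrl and 5.79, 7.02 and 2.95 CPM in B6 KD, without overlap. The list's median was 1.58, with all 10 estimates above 0. Its 20 genes summed to 14.9 to 17.4 CPM in B6 Ctrl, where the 3 CD3 chains together had 0.0578 to 0.324 CPM. Which cells carried this RNA was not tested. Il2rb (2.03 ± 0.53, edgeR adjusted p = 0.0649), the interleukin-7 receptor Il7r (1.74 ± 0.49, 0.0769) and Pdcd1, which encodes the inhibitory receptor PD-1 (2.73 ± 0.78, 0.0812), did not pass.

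Of 10 T cell transcription factors 9 were tested and 0 passed (median 0.43). Several of these, such as Bcl11b (-0.30 ± 0.12, edgeR adjusted p = 0.189), are also expressed by neurons. Of 20 cytotoxic and natural killer genes 8 were tested and 1 rose, Ctsw, a cathepsin of killer lymphocytes, with 6, 7 and 6 counts in B6 Ctrl and 26, 26 and 21 in B6 KD (1.98 ± 0.43, edgeR adjusted p = 0.0434). Outside B6 KD only 2 libraries reached the filter's level of 0.309 CPM, of 3 needed, so Ctsw was tested only because of the group in which it was high. Cst7 (3.25 ± 0.80, edgeR adjusted p = 0.0552), which activated microglia also express, did not pass. The list's median was 0.44. The calls of Il2rg and Ctsw were each lost when 8 of the 12 libraries were omitted singly, namely any B6 Ctrl library, B6 KD 1, B6 KD 2, D2 Ctrl 1, D2 Ctrl 2 and D2 KD 1, with edgeR adjusted p-values up to 0.191. In D2, averaged over strains and in the interaction, 0 genes of these 4 lists passed, where 0% of all genes did. Without D2 KD 3, 0 passed in D2 and in the interaction, and 4 of the 44 genes that were then tested passed in the average (Cst7, Il2rg, Klrk1 and Serpinb9), as did 4.97% of all genes.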

How the data were processed

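RNA from the hippocampus of 12 mice was sequenced as poly(A)-selected libraries, 3 per strain and treatment. The deposited expected counts per gene were made by the authors with RSEM 1.2.12 and Bowtie2 2.2.0, each mouse aligned to the genome of its own strain. The labels list GRCm38 and mm10 without a role, and the annotation release is not given in the sources used here. A second deposited table holds a signal, the same counts with decimals dropped and divided by 1 DESeq2 size factor per library by the authors. Whole reads came back from 100% of its 266784 values (tolerance 0.01 reads).

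Expected counts were rounded and fitted with edgeR 4.0.16 (quasi-likelihood, robust, TMM scaling, 1 mean per group) after edgeR's filter on low counts, with Benjamini-Hochberg adjustment over all genes tested and a threshold of 0.05. The fold change divided by the root of F gave the SE, which is approximate. From it 6 comparisons were read. DESeq2 1.42.0, limma-voom (limma 3.58.1), other edgeR settings, no filter, a depth covariate, the recovered reads and the omission of each library were alternatives. After the filter was seen to remove 7 of the 10 members, each alternative was also run without it. The procedure was tested on simulated data.

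The members, lists and motifs were chosen with earlier results of these data known. All members were described, and from each other list at most 4 genes were named, those of smallest p in B6 with a mean of at least 0.5 CPM. A gene named in a count of 5 or fewer, Ctsw and Faim3 among them, was chosen after its value was seen, as was Klrd1. Replicate names follow accession order and pair nothing. Nothing says that libraries of a group share a batch, and each is 1 mouse. Promoter windows are RefSeq's. A gene that the naming rule covers is not reported here.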

Additional observations from a re-analysis of the deposited data

How the results depend on the processing

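No paired analysis was possible because the labels number no replicates across groups. Each member was refitted under 19 alternatives. Over members and alternatives together, 189 of 189 estimates kept their direction in B6, 170 of 190 did in D2 and 188 of 190 did for the interaction. The refits share most of their libraries, and omitting a D2 library leaves the B6 counts in place, so they are not independent checks. In B6, the members called rose from 0 to 1 with DESeq2 (Ptprc) and to 1 without the filter (Cd3e), and ran from 0 to 3 over the left-out libraries. There the filter changed too, since a group of 2 lowers its demand. In all but the fits without B6 KD 1 or B6 KD 2, 9 members rather than 3 were tested. The members added there passed the filter only through B6 KD 1 and B6 KD 2, where they were high, so their filtered calls are no separate support. In the unfiltered fit the count of 1 became 4 with DESeq2, 3 with edgeR's newer quasi-likelihood method, 2 without robust estimation and 0 with library total as covariate, and ran from 0 to 3 over the left-out libraries. Calls over all genes went from 319 to 1669, 478, 405 and 0 under the first 4 of these. Averaged over strains DESeq2 called 1 member (Ptprc), filtered or not, in place of 0, and 1241 and 1218 of all genes in place of 0. For D2 against B6 averaged over treatments DESeq2 called 1 (Cd4), or 2 unfiltered (Cd4 and Ms4a4b). The left-out libraries gave 0 to 4 in either fit, with 4 (Cd3g, Cd4, Nkg7 and Ms4a4b) without B6 KD 3. Calls are common in this comparison, where edgeR with all libraries called 21.3% of all genes filtered and 17.5% unfiltered. The shares under DESeq2 and without B6 KD 3 are not given here. DESeq2 gave no adjusted p for Cd8b1 in B6.

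In D2 the log2 fold change turned to 0.20 (Cd4) and 0.13 (Nkg7) with limma-voom, and to 0.29 (Cd4), 0.30 (Nkg7) and 0.019 (Ms4a4b) with the depth covariate. Over left-out libraries it ran from -0.35 to 1.21 (Cd3e, -0.023 without D2 Ctrl 2), -0.46 to 1.29 (Cd3d, -0.16 without D2 KD 2), -1.39 to 0.76 (Cd3g, 0.22 without D2 KD 3), -0.58 to 1.08 (Cd4), -0.18 to 0.64 (Ptprc), -0.87 to 1.44 (Nkg7, 0.18 without D2 KD 3), -1.05 to 4.66 (Gzmb) and -1.30 to 0.15 (Ms4a4b, 0.017 without D2 Ctrl 3), and the Cd8b1 interaction from -1.32 to 2.53 (0.16 without D2 KD 1). The cause was not tested. Other than Ptprc, these members had few reads per library in D2.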

Other observations

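Other gene groups that bear on lymphocytes were described in the filtered fit of KD against Ctrl in B6, where 2.64% of all tested genes were called. Of 12 B cell and plasma cell genes 6 were tested and 1 rose, Faim3, a receptor of B cells (2.66 ± 0.60 SE, edgeR adjusted p = 0.0456), on 2, 1 and 2 counts in B6 Ctrl and 12, 7 and 15 in B6 KD. Outside B6 KD 0 libraries reached the filter's level, so it was tested only because of the group in which it was high. Cd22, which B cells and microglia express, did not pass (2.47 ± 0.61, edgeR adjusted p = 0.0567), with 0.540, 1.38 and 0.698 CPM in B6 Ctrl and 6.95, 5.74 and 1.60 CPM in B6 KD. Of 13 adhesion and homing receptors 10 were tested and 1 rose, Itgb7, the integrin chain of gut-homing lymphocytes (1.75 ± 0.33, edgeR adjusted p = 0.0361). It had 17, 17 and 20 counts in B6 Ctrl and 59, 59 and 58 in B6 KD. Of 12 chemokines and endothelial ligands, all tested, Ccl5 rose (4.52 ± 1.05, edgeR adjusted p = 0.0495), and Cxcl10, which draws activated T cells, did not pass (3.98 ± 1.10, edgeR adjusted p = 0.0744) with 1.04 to 2.32 CPM in B6 Ctrl and 22.6 to 35.997 CPM in B6 KD. Of 7 neighbours of Ms4a4b in the Ms4a4 and Ms4a6 family 6 were tested and Ms4a4c rose (4.89 ± 1.05, edgeR adjusted p = 0.0434).

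Of 12 genes of antigen presentation to T cells 4 rose (B2m, Tap1, Psmb8 and Nlrc5), with B2m, the light chain of class I molecules, at 2.23 ± 0.49 (edgeR adjusted p = 0.0447), and of 15 interferon response genes 13 rose. Of 12 microglia markers 2 rose (Olfml3 and Itgam), and of 12 monocyte and neutrophil markers 5 were tested and 1 rose (Plac8). The lists of border macrophage and dendritic cell markers (11 tested), red blood cell markers (4 tested), choroid plexus markers (10 tested) and hippocampal neuron markers (12 tested) had 0 calls. A common direction was not particular to the T cell lists. All 10 choroid plexus estimates were above 0 (median log2 fold change 1.72), with overlapping sums in B6 Ctrl and B6 KD. All were above 0 also for microglia (12, median 0.65), antigen presentation (12, 2.13), interferon response (15, 3.92), and monocytes and neutrophils (5, 1.63). Of the others, 9 of 11 border macrophage and dendritic cell estimates, 5 of 12 neuron and 1 of 4 red cell were above 0. No gene of these lists was called lower. The 26 list genes called in B6 were sensitive to single libraries, and each lost its call in at least 5 of the 12 fits that left out 1 library, with edgeR adjusted p-values up to 0.205 (Ccl5).

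Klrd1, which encodes CD94 of natural killer cells and is known to be deleted in DBA/2J, had 31 counts over the 6 B6 libraries. It had 0 in all 6 D2 libraries. D2 reads were aligned to the DBA/2J genome, and whether Klrd1 had a target there is not given in the sources used here. Without a target the 0 measures nothing, and with one it allows up to 3 counts over the strain.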
